A study of Mus musculus with 126 samples.

Results

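The class II and class IV histone deacetylases of the mouse are 7 genes, Hdac4, Hdac5, Hdac7 and Hdac9 (class IIa), Hdac6 and Hdac10 (class IIb) and Hdac11 (class IV). They were taken by gene symbol from a table of RNA-seq read counts that lists 23420 genes, and all 7 were present and passed the filter on low counts, as did 15822 genes in all. The table covers 8 libraries of mouse embryonic stem cells, out of a series of 126 samples whose other 118 samples (chromatin and open-chromatin assays with their controls) were not analysed here. The series addresses how DNA methylation and histone acetylation shape where transcription factors bind. The cells were of the J1 strain, kept on gelatin in serum with leukaemia inhibitory factor, and carried either the wild type genotype or knockouts of all of Dnmt1, Dnmt3a and Dnmt3b (Dnmt1-/-, Dnmt3a-/-, Dnmt3b-/-, called TKO). The 4 groups were wild type with DMSO, wild type with TSA, TKO with DMSO and TKO with TSA, with 2 libraries each. TSA (Trichostatin A, an inhibitor of histone deacetylases) was given at a labelled 5 ng/µl and its solvent DMSO at 0.0033%, in each case over 36 h. The TSA dose and its unit are as the label writes them and could not be checked against the files. The series' design text calls the libraries biological replicates, and the labels do not say which cultures or how many TKO clones they came from.

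Histone deacetylases remove acetyl groups from lysines of histones and other proteins. The zinc-dependent family is divided into class I, which are mostly nuclear and form the catalytic core of corepressor complexes, and classes II and IV. Class IIa enzymes have weak deacetylase activity of their own. They bind MEF2 transcription factors and the NCoR/SMRT corepressors, and kinases such as the CaM kinases and protein kinase D phosphorylate them, so that 14-3-3 proteins hold them in the cytoplasm. Class IIb holds Hdac6, a cytoplasmic deacetylase of tubulin, Hsp90 and cortactin with a ubiquitin-binding zinc finger, and Hdac10, a deacetylase of polyamines. Hdac11 is the sole class IV enzyme and removes long fatty acyl groups from proteins. TSA blocks the zinc site of class I and class IIb enzymes and acts weakly on class IIa, and it acts on the proteins, whereas the values below are RNA levels.

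Total counts per library ran from 13280631 to 15542527, so 3 counts, taken as the floor of detection, correspond to 0.183 to 0.243 normalised CPM (counts as a share of the library total, scaled by TMM factors). A floor of this kind covers counting error only. The genotype labels were checked on the targeted genes: in DMSO, Dnmt1, Dnmt3a and Dnmt3b RNA were lower in TKO by log2 fold changes of -1.78, -2.996 and -3.72. All 8 pluripotency markers examined (among them Pou5f1, Sox2 and Nanog) had counts in every library, and their summed level was 2885 to 3106 normalised CPM in DMSO wild type, 1583 to 1778 in TSA wild type, 3664 to 4119 in DMSO TKO and 1933 to 2173 in TSA TKO. Marker lists of other lineages moved with the groups too. The sum over 7 neural markers was 344 to 424 normalised CPM in DMSO wild type, 188 to 219 in TSA wild type, 309 to 340 in DMSO TKO and 182 to 201 in TSA TKO, and that over 6 endoderm markers was 12.8 to 14.5, 17.0 to 19.1, 25.9 to 28.1 and 33.0 to 35.7 in the same order. Tubb3 and Nes make up most of the neural sum, and Map2 (mean 19.8 to 41.0 normalised CPM) and Elavl3 (8.57 to 13.4) were higher with TSA in wild type. Of the endoderm markers, mean Sox17 went from 3.41 to 13.6 normalised CPM with TSA in TKO. Gata4 (6.82 to 5.77), Gata6 (5.26 to 4.01) and Sox7 (2.11 to 0.974) were lower there. The sum over 7 muscle markers was 56.1 to 63.2, 94.8 to 102, 64.2 to 75.7 and 70.8 to 97.8 normalised CPM, with Myf5 at 0 in both TSA wild type libraries. Des and Mylpf make up most of the muscle sum. Means of Myod1, Myog, Myf5 and Ckm were at most 0.881 normalised CPM in any group. Mean Actc1 went from 1.01 to 0.0916 normalised CPM with TSA in wild type. In such bulk libraries, a change in the share of cells of a kind and a change in RNA per cell cannot be told apart, and the part of these lists in the results below was not tested.

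The promoters of the family differed widely in CpG sites, the dinucleotides that the deleted Dnmt enzymes methylate. RefSeq start sites (build GRCm38.p6) were found for 6 of the 7 genes, giving 10 windows of 300 bases (250 before and 50 after the start site). Hdac10 had none in that table. Over 32851 such windows of mouse genes the median was 7 CpG sites, with quartiles of 3 and 20. Hdac6 had 20 CpG sites, Hdac11 22, Hdac5 18 and Hdac4 32, the last at a start site that lies 31948 bases outside the exons counted for the gene. Hdac7 had 4 windows with 5, 31, 35 and 6 CpG sites, and Hdac9 had 2 windows with 3 and 0. The 250 bases before the start site are shown for 3 genes whose RNA changed in different ways, with each CpG site in capitals. The Hdac7 stretch (minus strand, chr15:97831768-97832017) is from its window with the most CpG sites over 300 bases. The others are the Hdac6 stretch (minus strand, chrX:7947890-7948139) and that of the outermost Hdac9 window (minus strand, chr12:34917096-34917345).
Hdac7: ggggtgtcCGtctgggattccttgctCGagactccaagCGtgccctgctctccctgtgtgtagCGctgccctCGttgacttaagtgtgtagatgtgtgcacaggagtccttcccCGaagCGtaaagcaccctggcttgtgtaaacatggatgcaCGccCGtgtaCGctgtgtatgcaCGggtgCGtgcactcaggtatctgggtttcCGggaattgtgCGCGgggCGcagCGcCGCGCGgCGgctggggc
Hdac6: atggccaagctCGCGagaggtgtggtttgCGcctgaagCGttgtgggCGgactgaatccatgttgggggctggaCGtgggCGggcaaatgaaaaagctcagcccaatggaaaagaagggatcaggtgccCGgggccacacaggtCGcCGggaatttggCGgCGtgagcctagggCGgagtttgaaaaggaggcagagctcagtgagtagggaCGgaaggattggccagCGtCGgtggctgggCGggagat
Hdac9: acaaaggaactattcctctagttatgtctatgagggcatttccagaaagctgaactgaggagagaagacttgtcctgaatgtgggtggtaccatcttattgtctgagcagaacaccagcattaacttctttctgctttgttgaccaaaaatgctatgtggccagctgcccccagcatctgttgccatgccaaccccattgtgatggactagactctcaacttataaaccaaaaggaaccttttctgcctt
Of these stretches, Hdac7 held 21 CpG sites, Hdac6 17 and Hdac9 0. The 250 bases before the remaining Hdac7 start sites held 25, 6 and 5 CpG sites. Methylation of these sites was not measured in these libraries, and the Hdac7 counts cannot be assigned to one of its 4 start sites, since the counts are summed over all exons of the gene.

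Motif letters of the 5 transcription factors assayed elsewhere in the series and of MEF2 were searched on both strands of the 10 windows. GGGCGG, the core bound by SP1, was found in windows of Hdac4, Hdac5, Hdac6, Hdac7 and Hdac11 and in 35.7% of all windows. TGCGCA (NRF1; 7.76% of all windows) was found in Hdac11 only, at -182 to -177 from the start site, and AAGATGG (YY1; 6.34%) in Hdac9 only. CACGTG (MAX; 7.15%) was found in Hdac5 only, and CCGGAAG (GABPA; 8.86%) in none of the 10. The MEF2 motif was found in Hdac5 only, against 3.19% of all windows. None of these searched motifs overlapped another in the windows of these genes. The Hdac5 stretch (minus strand, chr11:102230173-102230422) is shown because class IIa enzymes act through MEF2, with the matched letters in capitals.
Hdac5: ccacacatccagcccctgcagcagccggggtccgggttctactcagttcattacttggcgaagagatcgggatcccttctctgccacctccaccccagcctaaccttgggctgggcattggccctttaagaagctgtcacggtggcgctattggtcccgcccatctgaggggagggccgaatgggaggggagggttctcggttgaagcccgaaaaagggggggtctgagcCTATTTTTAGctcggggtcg
The match lies at -20 to -11 from the start site and is a description of letters, not of binding.

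**Figure D1:**
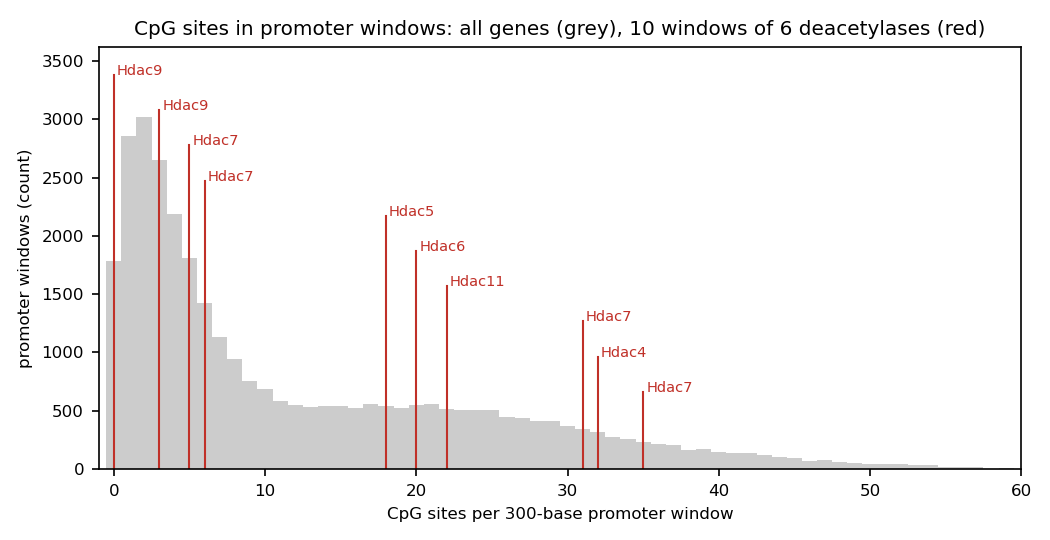
CpG sites per 300-base promoter window (x axis) against the number of windows (y axis) for all 32851 RefSeq windows of mouse genes (grey bars), with a red line for each of the 10 windows of the 6 deacetylase genes found. Hdac9 lies at 0 and 3 sites, whereas Hdac4 and 2 of the 4 Hdac7 windows lie at 31 or more.

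The design asks what TSA did in each genotype, what loss of the Dnmt genes did in each treatment, what both did together, and whether the TSA response differed between genotypes. Counts of all genes were tested in 1 edgeR quasi-likelihood fit with Benjamini-Hochberg adjustment over the 15822 genes tested, and calls were made below an adjusted p of 0.05. With TSA, 4 of the 7 deacetylases were called in wild type cells, against 52.8% of all genes tested. Of these 4, Hdac6 and Hdac11 rose (27% of all genes tested were called higher) and Hdac4 and Hdac10 fell (25.9% were called lower). In TKO cells 5 of 7 were called with TSA, against 58.7% of all genes. Hdac6, Hdac7 and Hdac9 rose (30.8% of all genes called higher) and Hdac4 and Hdac10 fell (27.9% called lower). The shares of the family are near those of all genes, so the counts do not set the family apart. When TSA wild type replicate 2 was left out, the count in wild type cells was 1, Hdac4, and the share of all genes called was lower too, at 35.7%.

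Fewer members were called between the genotypes. In DMSO, 2 of 7 (Hdac7 and Hdac10, both lower) were called, against 20.4% of all genes tested (9.63% called higher and 10.7% called lower). That count was 1, Hdac7, without DMSO wild type replicate 1 or without either DMSO TKO library, fits in which 8.97% to 11.1% of all genes were called. In TSA, 3 of 7 were called against 18.4% of all genes, with Hdac6 higher (10% called higher) and Hdac7 and Hdac10 lower (8.38% called lower). That count was 1, Hdac6, without TSA wild type replicate 1 or TSA TKO replicate 1, and 2 without TSA wild type replicate 2 or TSA TKO replicate 2, fits in which 5.81% to 12.8% of all genes were called. Between TKO with TSA and wild type with DMSO, 5 of 7 were called against 61.9% of all genes, with Hdac6 and Hdac9 higher (31.7% called higher) and Hdac4, Hdac7 and Hdac10 lower (30.2% called lower). These comparisons share groups of libraries and are not independent of each other. The interaction, which is the log2 response to TSA in TKO less the same response in wild type, called 0 of 7 by edgeR and 0 by DESeq2, against 1.35% of all genes by edgeR (0.879% higher and 0.468% lower), and 1 member, Hdac6, had an unadjusted edgeR p below 0.05.

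**Figure D2:**
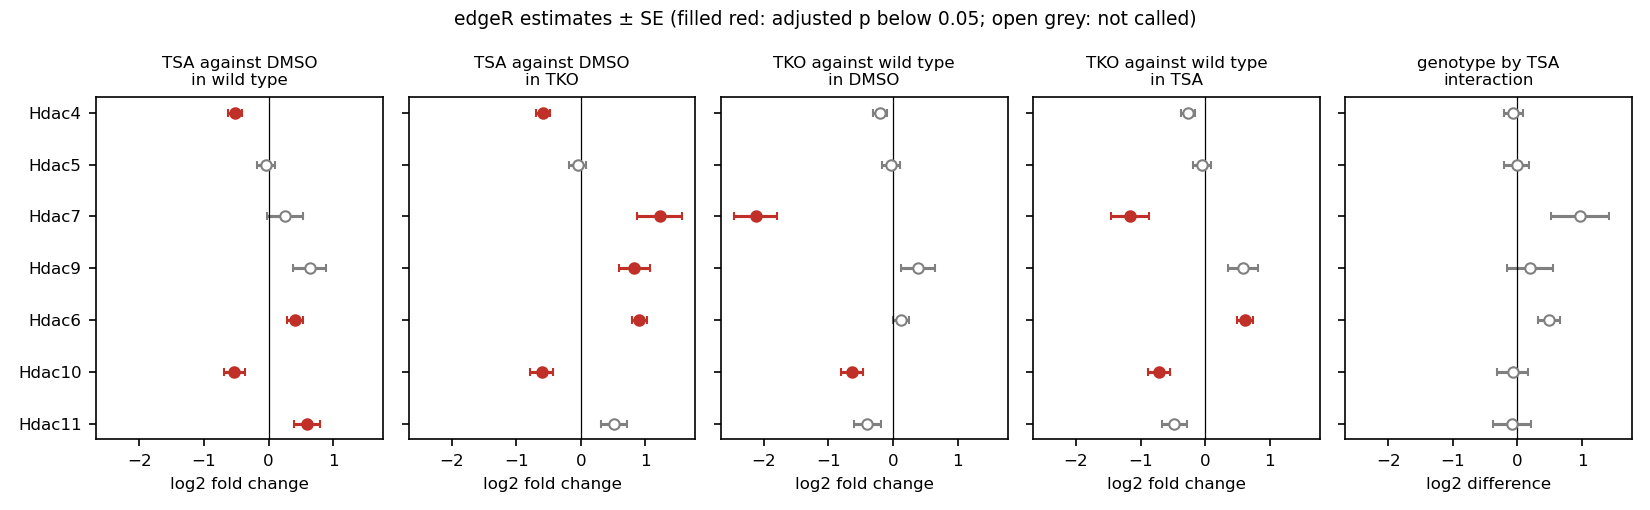
Log2 fold changes of the 7 deacetylases with approximate standard errors in the comparisons of the design, from the edgeR fit over 8 libraries, with filled points for called genes. Hdac4 and Hdac10 lie below 0 under TSA in both genotypes and Hdac6 above 0, while Hdac5 lies close to 0 throughout.

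Among the class IIa genes, Hdac4 fell with TSA in both genotypes. Hdac4 (chromosome 1, 91932749 to 92148393, minus strand, 26 exons, mm10 as are all positions of counted genes here) encodes the class IIa enzyme known for restraint of chondrocyte hypertrophy and for MEF2 repression in muscle and neurons. Its level was 54.0 and 48.9 normalised CPM in the 2 DMSO wild type libraries and 36.9 and 34.7 in TSA wild type. In TKO it was 44.1 and 45.3 normalised CPM with DMSO and 29.6 and 30.0 with TSA. Every TSA library lay below every DMSO library. The fall was 1.44-fold in wild type (log2 fold change -0.52 ± 0.11 SE, edgeR adjusted p = 0.00199) and 1.5-fold in TKO (-0.59 ± 0.11, edgeR adjusted p = 0.000822). It remained called without any one library and in each other setting run. The lower level in TKO did not pass the test in DMSO (log2 fold change -0.20, edgeR adjusted p = 0.205) or in TSA (-0.27, edgeR adjusted p = 0.112). The libraries of the genotypes did not overlap in either treatment. With 2 libraries a group, an exact permutation test of such a separation cannot go below p = 0.333. With both changes together Hdac4 was 1.73-fold below DMSO wild type (-0.79 ± 0.11 on the log2 scale, edgeR adjusted p = 9.36e-05).

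Hdac5 showed no called change in any comparison. Hdac5 (chromosome 11, 102195747 to 102230172, minus strand, 27 exons), a signal-dependent repressor of MEF2 targets in heart and vessel, was at 48.1 and 45.8 normalised CPM in DMSO wild type and 48.6 and 42.8 in TSA wild type. It was at 41.4 and 50.4 normalised CPM in DMSO TKO and 39.6 and 48.9 in TSA TKO. All 4 groups overlapped. The log2 fold change for TSA was -0.04 ± 0.14 (SE) in wild type and -0.05 ± 0.14 in TKO, and that for TKO in DMSO was -0.03 ± 0.14. The edgeR adjusted p lay between 0.612 and 0.894 over the 5 pairwise comparisons. The sign of the TSA difference depended on the scaling, being positive under upper quartile scaling and under total counts.

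Hdac7 showed the largest genotype difference of the family. Hdac7 (chromosome 15, 97792664 to 97844502, minus strand, 28 exons), the class IIa enzyme of endothelial cells and developing thymocytes, was at 8.64 and 4.62 normalised CPM in DMSO wild type and at 1.23 and 1.82 in DMSO TKO. Its raw counts were 121 and 57 in the wild type libraries against 18 and 25 in TKO. The groups did not overlap, and Hdac7 was 4.37-fold lower in TKO (log2 fold change -2.13 ± 0.34 SE, edgeR adjusted p = 0.00148). The call was kept without any one library, with log2 fold changes from -2.50 to -1.62. The 2 DMSO wild type libraries themselves differed more than those of any other group.

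With TSA, Hdac7 stood at 7.88 and 8.02 normalised CPM in wild type and at 3.45 and 3.64 in TKO. In TKO it rose 2.33-fold over DMSO (log2 fold change 1.22 ± 0.35 SE, edgeR adjusted p = 0.0118), a call lost without DMSO TKO replicate 1 (0.95, edgeR adjusted p = 0.0992). In wild type the TSA libraries lay between the 2 DMSO libraries, and no change was called (0.25 ± 0.28, edgeR adjusted p = 0.465). That wild type value was -0.13 without DMSO wild type replicate 2 and 0.78 without replicate 1, the latter with an edgeR adjusted p of 0.0493. Under TSA the TKO level stayed 2.24-fold below wild type (-1.16 ± 0.29, edgeR adjusted p = 0.0190), and that call was lost without any one of its 4 libraries, with edgeR adjusted p-values from 0.0570 to 0.0823. TKO with TSA remained 1.88-fold below wild type with DMSO (-0.91 ± 0.30, edgeR adjusted p = 0.0206). That call was lost without DMSO wild type replicate 1 (-0.39, edgeR adjusted p = 0.292), without either TSA TKO library (edgeR adjusted p = 0.0738 and 0.0620) and with total counts in place of TMM (0.0536). The difference between the TSA responses was 0.97 ± 0.45 and was not called (edgeR adjusted p = 0.360).

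Of the marker lists of other cell types, the mesenchymal and trophoblast ones were lowest in DMSO TKO, as Hdac7 was. The summed level of 8 mesenchymal or feeder-cell markers was 111 and 81.8 normalised CPM in DMSO wild type, 97.8 and 108 in TSA wild type, 14.8 and 14.3 in DMSO TKO and 40.4 and 56.6 in TSA TKO. All 8 had counts in each group, and single markers went opposite ways. With TSA in wild type, mean Acta2 went from 55.0 to 14.5 normalised CPM, whereas Col1a2 went from 14.7 to 35.4, Thy1 from 4.47 to 15.4, Pdgfrb from 4.72 to 14.9 and Lum from 0.0714 to 3.52. The sum over 5 trophoblast markers, all with counts in each group, was 23.3 to 27.5 normalised CPM in DMSO wild type, 83.7 to 86.4 in TSA wild type, 6.36 to 8.88 in DMSO TKO and 48.6 to 58.4 in TSA TKO. The trophoblast sum was higher with TSA in wild type, where Hdac7 had no called change. There mean Eomes went from 7.84 to 5.54 normalised CPM, whereas means of Cdx2, Elf5, Krt7 and Hand1 were higher. The trophoblast sum was also higher in TSA TKO than in DMSO wild type, a comparison in which Hdac7 was lower. Means of Cdx2, Eomes, Elf5 and Hand1 were higher in that comparison, whereas mean Krt7 was lower, as Hdac7 was. Mean Krt7 was 3.09 normalised CPM in DMSO TKO and 2.82 in TSA TKO. The part of either marker list in the Hdac7 differences was not tested. Hdac7 shares 29 exonic bases (0.585% of its exons) with Slc48a1 on the opposite strand, and the other 6 genes share none with another gene of the table.

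Hdac9 was higher with TSA, and this passed the test in TKO. Hdac9 (chromosome 12, 34047582 to 34917095, minus strand, 29 exons) encodes a class IIa enzyme whose transcripts include a form without the catalytic domain. It was at 3.85 and 2.92 normalised CPM in DMSO wild type and 4.70 and 5.91 in TSA wild type. In TKO it was at 4.99 and 3.93 with DMSO and 7.17 and 8.73 with TSA. TSA and DMSO libraries did not overlap within either genotype. The rise in TKO was 1.78-fold (log2 fold change 0.83 ± 0.24 SE, edgeR adjusted p = 0.0118), and the call was lost without DMSO TKO replicate 2 (edgeR adjusted p = 0.0894) or TSA TKO replicate 2 (0.0863). In wild type the value was 0.64 ± 0.26 with an edgeR adjusted p of 0.0562, which fell to 0.0245 under upper quartile scaling and 0.0194 under total counts. The genotype values, 0.39 in DMSO and 0.59 in TSA, were not called (edgeR adjusted p = 0.329 and 0.108). Over both changes together Hdac9 rose 2.34-fold (1.22 ± 0.25, edgeR adjusted p = 0.00143), a call kept without any one library.

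**Figure D3:**
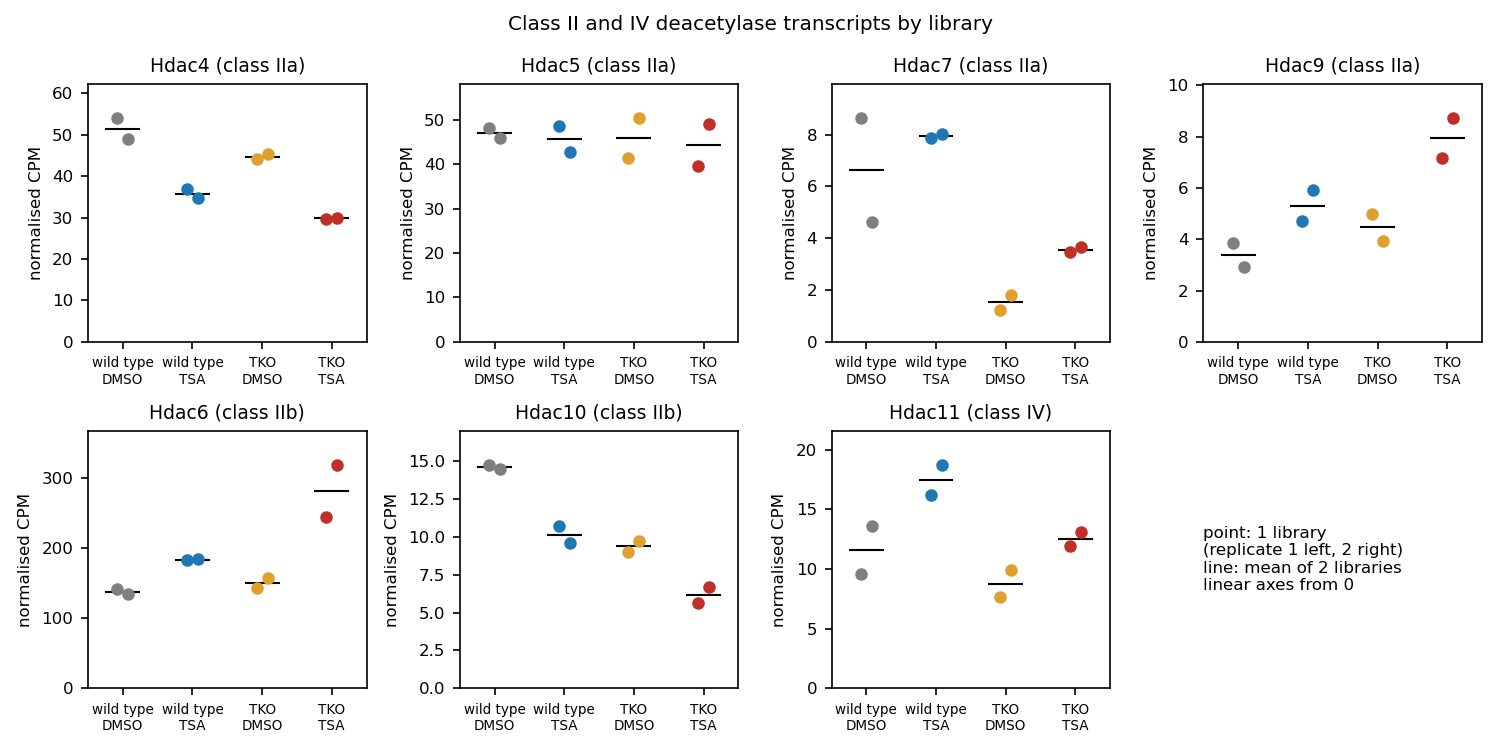
Normalised CPM of each deacetylase in each of the 8 libraries (points) with the group mean (line), for wild type and TKO cells with DMSO or TSA. Each gene has its own panel and its own linear axis. The points of Hdac5 overlap across the 4 groups, and those of Hdac7 in DMSO TKO (1.23 and 1.82) are the lowest values of all.

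Of the class IIb genes, Hdac6 rose with TSA in both genotypes. Hdac6 (chromosome X, 7930122 to 7947889, minus strand, 29 exons) was at 142 and 134 normalised CPM in DMSO wild type and 182 and 184 in TSA wild type. In TKO it was at 142 and 157 with DMSO and 244 and 319 with TSA. The 2 TSA TKO libraries lay above all others and were themselves the farthest apart of any Hdac6 pair. The rise was 1.33-fold in wild type (log2 fold change 0.41 ± 0.12 SE, edgeR adjusted p = 0.0146). That call was lost without DMSO wild type replicate 2 (0.37, edgeR adjusted p = 0.0657) or TSA wild type replicate 2 (0.40, edgeR adjusted p = 0.0589). In TKO the rise was 1.87-fold (0.91 ± 0.12, edgeR adjusted p = 9.86e-05), and it was called without any one library, with values from 0.70 to 1.08.

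The Hdac6 level did not differ by genotype beyond the test in DMSO (log2 fold change 0.12 ± 0.12, edgeR adjusted p = 0.525), and under TSA it was 1.53-fold higher in TKO (0.62 ± 0.12, edgeR adjusted p = 0.00556). With both changes it was 2.04-fold above DMSO wild type (1.03 ± 0.12, edgeR adjusted p = 3.50e-05). The TSA response was larger in TKO by 0.49 ± 0.17 on the log2 scale, and this difference was not called (edgeR adjusted p = 0.205, 0.0946 to 0.292 over the settings that keep all libraries). Without TSA TKO replicate 1 it was 0.68 (edgeR adjusted p = 0.0525), and without replicate 2 it was 0.29 (0.526). Hdac6 is X-linked and was counted over exons that share no base with another gene.

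Hdac10 fell with TSA and with loss of the Dnmt genes. Hdac10 (chromosome 15, 89123303 to 89128700, minus strand, 19 exons) was at 14.8 and 14.5 normalised CPM in DMSO wild type and 10.7 and 9.58 in TSA wild type. It was at 9.03 and 9.75 in DMSO TKO and at 5.62 and 6.72 in TSA TKO. The DMSO wild type pair lay highest and the TSA TKO pair lowest, with no overlap. With both changes Hdac10 was 2.37-fold lower (log2 fold change -1.24 ± 0.18 SE, edgeR adjusted p = 0.000115), a call kept without any one library. Each single step was close to the threshold. The TSA step was -0.53 ± 0.17 in wild type (edgeR adjusted p = 0.0206) and -0.60 ± 0.18 in TKO (edgeR adjusted p = 0.0131). In wild type it was not called by DESeq2 (adjusted p = 0.0727), under upper quartile scaling (-0.38, edgeR adjusted p = 0.0798) or total counts (-0.33, edgeR adjusted p = 0.133), or without DMSO wild type replicate 1 (edgeR adjusted p = 0.0637) or TSA wild type replicate 2 (0.129). In TKO it was lost without DMSO TKO replicate 2 (edgeR adjusted p = 0.0651) or TSA TKO replicate 1 (0.0891) and under total counts (0.0519).

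The genotype step of Hdac10 was -0.64 ± 0.17 in DMSO (edgeR adjusted p = 0.0214) and -0.72 ± 0.18 in TSA (edgeR adjusted p = 0.0174). In DMSO it was lost by DESeq2 (adjusted p = 0.0537) and without DMSO wild type replicate 1 (edgeR adjusted p = 0.0764), DMSO TKO replicate 1 (0.123) or replicate 2 (0.0825). In TSA it was lost without TSA wild type replicate 1 (edgeR adjusted p = 0.139) or TSA TKO replicate 1 (0.106). The interaction was -0.07 ± 0.24.

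Hdac11, the class IV gene, rose with TSA in wild type cells. Hdac11 (chromosome 6, 91156815 to 91174683, plus strand, 10 exons) was at 9.56 and 13.6 normalised CPM in DMSO wild type and 16.2 and 18.8 in TSA wild type. In TKO it was at 7.66 and 9.90 with DMSO and 11.9 and 13.1 with TSA. Within each genotype TSA and DMSO libraries did not overlap, whereas the TSA TKO pair lay within the DMSO wild type pair. The rise in wild type was 1.51-fold (log2 fold change 0.60 ± 0.20 SE, edgeR adjusted p = 0.0273). It fell to 0.36 without DMSO wild type replicate 1 (edgeR adjusted p = 0.189) and to 0.48 without TSA wild type replicate 2 (0.147). In TKO the value was 0.51 ± 0.21 with an edgeR adjusted p of 0.0515. It was called in several other settings, among them upper quartile scaling (edgeR adjusted p = 0.0350), total counts (0.0192), a fit of the TKO libraries alone (0.0413) and fits without DMSO wild type replicate 1 (0.0253), DMSO wild type replicate 2 (0.0293) or DMSO TKO replicate 2 (0.0457). The TKO values, -0.40 in DMSO and -0.48 in TSA, were not called (edgeR adjusted p = 0.214 and 0.116).

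Divided by exon length, so that genes can be compared with each other, Hdac6 was the most abundant member in all 4 groups. In DMSO wild type the mean levels per kb of exon were 33.2 normalised CPM for Hdac6, 13.04 for Hdac4 and 12.4 for Hdac5. Below these lay Hdac10 at 5.41, Hdac11 at 4.65, Hdac7 at 1.34 and Hdac9 at 0.312 per kb. The ranges of the 2 libraries overlapped for Hdac4 and Hdac5, and for Hdac10 and Hdac11, so the order within these pairs was not resolved. In TSA wild type the order was Hdac6 (44.2 normalised CPM per kb), Hdac5 (12.0), Hdac4 (9.08), Hdac11 (7.01), Hdac10 (3.75), Hdac7 (1.60) and Hdac9 (0.488), with no overlap between neighbours. In DMSO TKO Hdac6 (36.2) was followed by Hdac5 (12.1) and Hdac4 (11.3), which overlapped, by Hdac11 (3.52) and Hdac10 (3.47), which overlapped, and by Hdac9 (0.411) and Hdac7 (0.308), which overlapped. In TSA TKO the levels were 67.9 normalised CPM per kb for Hdac6, 11.7 for Hdac5, 7.55 for Hdac4, 5.02 for Hdac11 and 2.28 for Hdac10, and 0.732 for Hdac9 overlapped with 0.715 for Hdac7. Hdac5 thus lay above Hdac4 in both TSA groups beyond the spread of the libraries.

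Hdac6 also took a growing share of the family's summed level per kb. Its share was 47.5% and 47.0% in DMSO wild type, 56.0% and 57.2% in TSA wild type, 54.1% and 53.5% in DMSO TKO and 69.2% and 72.1% in TSA TKO. The 4 groups did not overlap in this share. The sum over all 7 was 71.9 and 68.8 normalised CPM per kb in DMSO wild type and 84.9 and 107 in TSA TKO. The sum without Hdac6 was 37.8 and 36.5 in DMSO wild type and 34.6 and 33.3 in TSA wild type. In TKO it was 29.2 and 33.0 with DMSO and 26.1 and 29.8 with TSA, and these TKO groups overlapped. The other 6 genes together were thus lower in TSA TKO than in DMSO wild type. The 7 genes made up 28.2% to 30.3% of the summed level of the 11 classical deacetylases (classes I, II and IV) in DMSO wild type and 34.2% to 41.1% in TSA TKO. Hdac1 has near-identical copies in the genome that can share its reads, so the class I sum is uncertain. These shares are descriptions without a test.

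**Figure D4:**
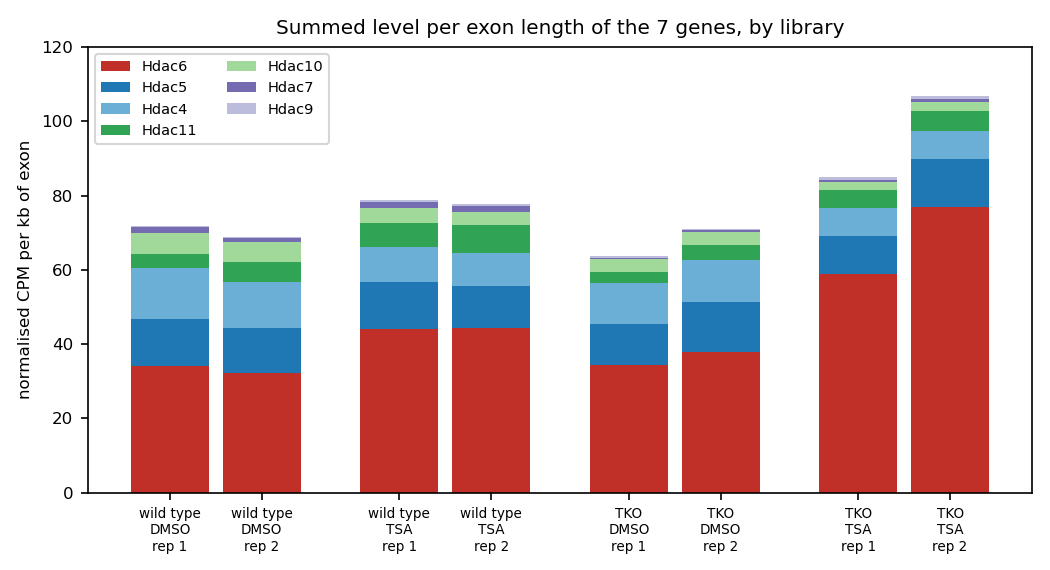
Normalised CPM per kb of exon of the 7 genes, stacked by gene (y axis), for each of the 8 libraries (x axis). The Hdac6 segment makes up 47.0% to 47.5% of the bar in DMSO wild type and 69.2% to 72.1% in TSA TKO.

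The genes most like each member were taken as the 2 with the highest Pearson r of log2 normalised CPM over the 8 libraries, among 14414 tested genes with a mean of at least 1 normalised CPM. The 8 libraries are 4 groups of 2 and share the group differences, so a high r describes a like order of groups and no more. Hdac6 was most like Ccnyl1 (r = 0.997) and the MHC class I gene H2-K1 (r = 0.995). H2-K1 stood at a mean of 47.3 normalised CPM in DMSO wild type, 65.7 in TSA wild type, 51.3 in DMSO TKO and 108 in TSA TKO. Hdac7 was most like the AP-1 family gene Fosl2 (r = 0.992; 22.0, 28.4, 4.52 and 12.7 normalised CPM in the same group order) and Rnf214 (r = 0.990). Hdac4 was most like Zfp651 (r = 0.997) and Vps52 (r = 0.996), and Hdac10 most like Xab2 (r = 0.988) and Trappc2l (r = 0.987). Hdac9 was most like Olfml3 (r = 0.988) and Paqr8 (r = 0.981), and Hdac11 most like the axonemal gene Tekt1 (r = 0.986) and 0610007N19Rik (r = 0.978). Hdac5, which changed least, had the lowest r, 0.937 with Lysmd4 and 0.926 with Tcf7.

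Genes of the same pathways were counted next, from lists of known partners. The counts are to be read against the shares of all genes called, which were 27% higher and 25.9% lower with TSA in wild type, 30.8% higher and 27.9% lower with TSA in TKO, and 9.63% higher and 10.7% lower in TKO with DMSO. Whether any list differs from all genes in these counts was not tested. Of the 4 MEF2 factors, which class IIa enzymes repress, TSA called 1 higher in wild type and 2 in TKO, and none was lower. Mef2c rose from a mean of 1.02 to 4.59 normalised CPM in wild type (log2 fold change 2.15 ± 0.32 SE, edgeR adjusted p = 0.000287). In TKO Mef2c rose from 0.456 to 2.78 normalised CPM (2.58 ± 0.38, edgeR adjusted p = 0.000184), and Mef2b from 4.58 to 7.78 (0.77 ± 0.30, edgeR adjusted p = 0.0474). None of the 4 was called between genotypes in DMSO.

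Of the 16 kinases that phosphorylate class IIa enzymes, 15 were tested. TSA called 4 higher and 0 lower in wild type, and 5 higher and 2 lower in TKO, so the number called higher was near the share of all genes. The median log2 fold change was 0.19 in wild type, against 0.01 over all genes tested. Camk2a, a subunit of CaM kinase II, rose from 2.08 to 10.2 normalised CPM in wild type (log2 fold change 2.29 ± 0.24 SE) and from 3.18 to 6.05 in TKO (0.93 ± 0.23). Prkd1, which encodes protein kinase D, rose by 1.152 ± 0.21 in wild type and 1.26 ± 0.20 in TKO on the log2 scale. Both DMSO TKO libraries held no more than 3 counts of Camk4, so its TSA rise in TKO was at least 11.5-fold and its level in DMSO TKO was at least 6.13-fold lower than in DMSO wild type. In TKO against wild type with DMSO, 3 kinases were called higher and 2 lower, with Camk2b (1.31 ± 0.14) and Camk1d (1.28 ± 0.20) among those higher.

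The 14-3-3 genes, whose products retain phosphorylated class IIa enzymes in the cytoplasm, were called 1 higher and 4 lower of 7 with TSA in wild type, and 1 higher and 3 lower in TKO. The gene that rose was Sfn, from a mean of 126 to 426 normalised CPM in wild type (log2 fold change 1.75 ± 0.26 SE) and from 31.5 to 228 in TKO (2.85 ± 0.28). Sfn was also the 1 gene of the list called in TKO with DMSO, where it was lower (-2.01 ± 0.28, edgeR adjusted p = 0.000728). Under TSA the log2 fold change of Ywhah was -1.02 in wild type and -1.03 in TKO, and that of Ywhaz was -0.64 and -0.70. Of 8 corepressor genes of the class IIa partners, TSA called 1 higher and 4 lower in wild type and 2 higher and 5 lower in TKO, with median log2 fold changes of -0.44 and -0.39 against 0.01 and 0.04 over all genes. Ncor1, the scaffold that links class IIa enzymes to Hdac3, fell from a mean of 298 to 149 normalised CPM in wild type (-0.997 ± 0.09, edgeR adjusted p = 2.32e-05) and from 376 to 181 in TKO (-1.06 ± 0.09, edgeR adjusted p = 7.04e-06). The log2 fold change of Tbl1xr1 was -1.08 in wild type and -1.11 in TKO. Ctbp1 fell by 0.999 in wild type, and Gps2 rose by 1.13 in TKO. In TKO with DMSO, 2 corepressor genes were higher, Bcor (0.71 ± 0.11) and Ncor1 (0.34 ± 0.09), and 1 was lower, Tbl1x (-0.46 ± 0.10).

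Of 10 genes for substrates and partners of Hdac6, TSA called 2 higher and 4 lower in each genotype, near the 52.8% and 58.7% of all genes called either way, and 1 was called in TKO with DMSO, the chaperone gene Dnajc3 (log2 fold change 0.55 ± 0.12 SE). Tppp, a tubulin-binding protein that inhibits Hdac6, rose from a mean of 1.14 to 6.14 normalised CPM in wild type (2.41 ± 0.37) and from 2.64 to 10.2 in TKO (1.95 ± 0.31). Sqstm1, the autophagy receptor p62, rose by 0.54 ± 0.11 and 0.59 ± 0.11. Hsp90ab1, a chaperone deacetylated by Hdac6, changed by -0.74 and -0.69 on the log2 scale. Of 12 genes of polyamine metabolism, the pathway of Hdac10, 10 were tested, with 3 higher and 4 lower with TSA in wild type and 4 higher and 4 lower in TKO. In TKO with DMSO 1 was higher (Smox, 0.57 ± 0.14) and 2 lower (Sat2, -1.27 ± 0.38, and Sat1, -0.77 ± 0.17). Smox, spermine oxidase, rose with TSA in wild type from 12.6 to 25.9 normalised CPM (1.03 ± 0.14). Sat1, which acetylates spermidine and spermine, rose with TSA in TKO from 39.6 to 89.1 normalised CPM (1.17 ± 0.17). Paox, the oxidase of acetylated polyamines, changed by -1.0 in wild type and -0.94 in TKO, and Srm, spermidine synthase, by -0.82 and -0.81.

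The other deacetylase classes were counted in the same way. Of the 4 class I genes, TSA called 0 higher and 1 lower (Hdac2, log2 fold change -0.27 ± 0.10 SE, edgeR adjusted p = 0.0316) in wild type and 0 in TKO, and TKO with DMSO showed 1 lower (Hdac8, -0.70 ± 0.17, edgeR adjusted p = 0.0157). Of the 7 sirtuins, the NAD-dependent class III that TSA does not inhibit, TSA called 3 higher and 1 lower in each genotype, and none was called between genotypes in DMSO. Sirt4 rose by 1.30 ± 0.24 in wild type and 1.09 ± 0.24 in TKO, Sirt7 by 0.46 ± 0.12 and 0.52 ± 0.12, and Sirt1 fell by 0.58 in wild type. Sirt2 rose by 0.51 ± 0.14 in TKO. Whether the classes differed from each other was not tested.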

How the data were processed

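RNA levels were measured in 8 libraries of 4 groups, placed by genotype, treatment and replicate labels. The labels' protocols describe DNase-treated RNA, removal of ribosomal RNA, and strand-directional libraries read from both ends. The authors deposited raw read counts per gene with exon positions and summed exon lengths in bases; the submitters' processing notes name TopHat2 2.0.13, featureCounts 1.4.5-p1, edgeR 3.22.3 and mm10. The annotation, the strand setting and the handling of reads that map to several places are not given in the sources used here, so reads shared by overlapping exons cannot be told apart.

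From the deposited counts, edgeR 4.0.16 (R 4.3.3) fitted 1 quasi-likelihood model of 4 group means (4 residual degrees of freedom) to the 15822 genes kept by filterByExpr, with TMM scaling, two-sided tests and Benjamini-Hochberg adjustment over these genes. Standard errors (SE) are approximate, being back-calculated from the F statistic of each log2 fold change. The common biological coefficient of variation was 10.3%. With 2 libraries a group, an exact permutation test cannot go below p = 0.333, so p-values rest on the spread shared across genes. Replicates differed beyond sampling noise (chi-square per degree of freedom 4.54 to 10.3), so each library counted as 1 replicate. The members, lists and tests were chosen with earlier results of these data known. All 7 members are named, as are the 2 genes most like each, and at most 3 called genes for each partner list and comparison, those with the largest change. Where no library of the lower group exceeded 3 counts, the fold is a bound against 3 counts per library. Alternatives were DESeq2 1.42.0, other scalings, filters, thresholds and fits, a replicate block and leaving out each library. Promoter sequences are RefSeq's (GRCm38.p6). No protein sequences were used.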

Additional observations from a re-analysis of the deposited data

How the results depend on the processing

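Over the alternatives, testing without the filter on low counts kept the sign and the call of all 42 values (7 genes in 6 comparisons), DESeq2 those of 40, the 2-group fits 34 of 35, upper quartile scaling 36 and total counts 34. With upper quartile scaling and total counts the median of all genes under TSA in wild type moved from 0.01 to 0.16 and 0.22 on the log2 scale. Hdac5 then turned sign: 0.11 and 0.17 for TSA in wild type, 0.026 and 0.10 in TKO, and 0.024 and 0.087 for both changes. These Hdac5 values were not called, and relative to the shifted median Hdac5 lay below it.

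At an adjusted p below 0.01 the members called numbered 1 under TSA in wild type and 2 in TKO, 1 by genotype in DMSO and 1 in TSA, and 4 for both changes, where 36%, 43.8%, 9.78%, 7.72% and 47.9% of all genes were called. DESeq2 called 1 by genotype in DMSO (13.1% of all genes).

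Each library was left out in turn, and the lone library left in a group was then assumed to vary like the others. In the pairwise comparisons, the number of members called and the share of all genes called both changed with the library left out. Log2 fold changes that turned sign had these ranges. Hdac5 ran from -0.14 to 0.048 under TSA in wild type and -0.21 to 0.092 in TKO, -0.18 to 0.10 by genotype in DMSO and -0.20 to 0.10 in TSA, -0.25 to 0.056 for both changes and -0.17 to 0.14 for the interaction. Hdac7 for TSA in wild type ran from -0.13 to 0.78, and Hdac11 for both changes from -0.13 to 0.38. For the interaction, Hdac4 ran from -0.13 to 0.0089, Hdac9 from -0.017 to 0.38, Hdac10 from -0.21 to 0.047 and Hdac11 from -0.35 to 0.17. In the order by level per length, 5 to 7 members kept their rank with 1 library of DMSO wild type, 3 to 5 with 1 of DMSO TKO and 5 to 7 with 1 of TSA TKO. The cause was not tested.

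With the replicate number as a block, 39 of 42 values kept their call and 3 gained one: Hdac9 for TSA in wild type (edgeR adjusted p = 0.0463), Hdac11 for TSA in TKO (0.0130) and Hdac11 for TKO in TSA (0.0316). The block gave 5, 6, 2, 4 and 5 members called in the 5 pairwise comparisons and 0 for the interaction. It called 58.5%, 63.4%, 26.7%, 25.9% and 65.8% of all genes in the same order, and 4% for the interaction. Each of these shares was larger than in the fit without the block. Same-numbered libraries deviated together with correlations of 0.0673 to 0.325 across genes, and the labels do not say that the numbers mark a shared culture or day.

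The lowest member count was 18 (Hdac7), above the floor of 3 counts, and 2 libraries a group limit the precision of every value.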

Other observations

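On each side of the 7 deacetylases, the nearest gene among those tested that does not overlap the deacetylase was looked at. Those named here were chosen after their values were seen, as a description. Hdac6 lies 1515 bases from Eras, a Ras-family gene of embryonic stem cells, and 11371 bases from the erythroid factor Gata1. While Hdac6 rose with TSA, Eras fell by 1.76 on the log2 scale in wild type and by 1.59 in TKO (edgeR adjusted p = 3.61e-05 and 2.79e-05), and Gata1 rose by 0.96 and 1.08 (edgeR adjusted p = 0.0376 and 0.0124). Hdac10 lies 1884 bases from Mapk12, a p38 kinase gene, and 153 bases from Tubgcp6, a gamma-tubulin complex gene. With TSA, Mapk12 fell by 1.51 in wild type and 1.36 in TKO (edgeR adjusted p = 0.000368 and 0.000692), as Hdac10 did by 0.53 and 0.60. The values of Tubgcp6 were -0.02 and -0.0035, with edgeR adjusted p-values of 0.870 and 0.981. Other neighbours changed by more than their deacetylase. With TSA in wild type, Vdr, 9925 bases from Hdac7, rose by 3.37 (edgeR adjusted p = 0.000417), where Hdac7 had no called change, and Fbln2, 38081 bases from Hdac11, rose by 2.83 (edgeR adjusted p = 3.74e-05).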
